A study of Mus musculus with 2 samples.

Results

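The MYC-MAX-MLX network is a set of basic helix-loop-helix leucine zipper proteins, and it was represented here by 10 genes out of 18194 with a probe set of their own: Mlxipl, Mlxip, Mlx, Max, Mnt, Myc, Mycn, Mycl, Mxd3 and Mxd4. They were taken by symbol, as every probe set annotated to exactly 1 of these genes, which gave 21 of 45101 probe sets. Mlxipl belongs to the chromosome segment that is lost in Williams-Beuren syndrome (WBS), a human disorder, and the other 9 genes were chosen as its partners and relatives. The samples were 2 Affymetrix arrays hybridised with RNA of a mouse embryonic stem (ES) cell line of genotype Del1.3MbWBS, a deletion of 1.3 Mb in the WBS region. The line was kept on feeder cells, in medium with leukaemia inhibitory factor and serum replacement at 20%. Both arrays form 1 group, and the labels name them biological replicates without a word on separate cultures or days, so their spread may be technical. They do not say which genes lie in the deletion or whether 1 or both copies were lost. No line without the deletion was analysed here, so there was no comparison of genotypes and no test.

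Proteins of this network bind DNA only as dimers, at short palindromic sites called E-boxes. MAX pairs with the activators MYC, MYCN and MYCL and with the repressors of the MXD group and MNT, so that activators and repressors compete for MAX and for sites. MLX pairs with MLXIP (MondoA) and with MLXIPL (ChREBP), which carry glucose signals to genes of sugar and fat metabolism, and also with MNT and some MXD proteins, which joins the MAX and MLX arms. In mouse ES cells MYC and MYCN are known for their part in growth and self-renewal, whereas ChREBP is known mainly from liver and fat.

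The DNA motif of the network is shown first, because both the network genes and their known targets can be searched for it. RefSeq start sites were available for 9 of the 10 genes, and the 250 bases before each start were read for CACGTG, which is its own reverse complement, so 1 search covers both strands. Of these 9 genes, 4 (44.4%) held it: Mlxipl, Mlx, Mnt and Mxd4. The other network genes, Mga, Mxd1 and Mxi1, did not, so that with them it was 4 of 12 (33.3%). Over all genes of the table the share was 6.86% (1854 of 27025), or 6.02% counted by start, and over those above background on these arrays it was 10.1% (1008 of 10019). Mlxip, Max, Mycn, Mycl and Mxd3 had no CACGTG in this window, and with 50 bases after the start included Max held it as well, which made 5 of 9 against 8.09% of all genes. The windows of the network genes held a median of 16 CpG dinucleotides, against 15 in windows of genes above background and 6 in all windows. The motif itself contains a CpG, and the part of CpG content in the difference was not tested. These are counts of letters, and do not show that a factor binds there.

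The windows of Mlxipl and Mxd4 that lie wholly before the gene's span are given in full, with CACGTG in capitals, 5′ to 3′ on the gene's strand, from RefSeq on GRCm38.p6. That of Mlxipl is chr5:135089640-135089889, plus strand, and that of Mxd4 is chr5:34187711-34187960, minus strand. RefSeq lists another Mlxipl start 17001 bases further on, whose window had no CACGTG. In mice the upstream start is known for a short isoform, ChREBP-beta, which ChREBP itself induces.
Mlxipl, upstream start: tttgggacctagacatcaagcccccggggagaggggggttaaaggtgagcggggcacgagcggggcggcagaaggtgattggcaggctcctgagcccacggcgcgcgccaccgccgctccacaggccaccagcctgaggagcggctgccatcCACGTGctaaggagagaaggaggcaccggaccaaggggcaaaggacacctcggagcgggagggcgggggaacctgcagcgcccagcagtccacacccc
Mxd4: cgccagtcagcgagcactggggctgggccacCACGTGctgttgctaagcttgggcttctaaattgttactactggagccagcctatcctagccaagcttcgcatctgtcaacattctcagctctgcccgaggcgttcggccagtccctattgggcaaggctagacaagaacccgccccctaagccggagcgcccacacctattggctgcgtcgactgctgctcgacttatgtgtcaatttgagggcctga

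For Mlx and Mnt, whose windows are not wholly outside the gene's span in the RefSeq gene table, only the 30 bases around the motif are given. The Mlx stretch is chr11:101087238-101087267, plus strand, and begins its CACGTG 40 bases before the start. The Mnt stretch is chr11:74830789-74830818, plus strand, with the motif 123 bases before the start. In both, the capitals again mark CACGTG.
Mlx: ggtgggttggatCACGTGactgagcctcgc
Mnt: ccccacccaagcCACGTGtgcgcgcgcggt

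**Figure D1:**
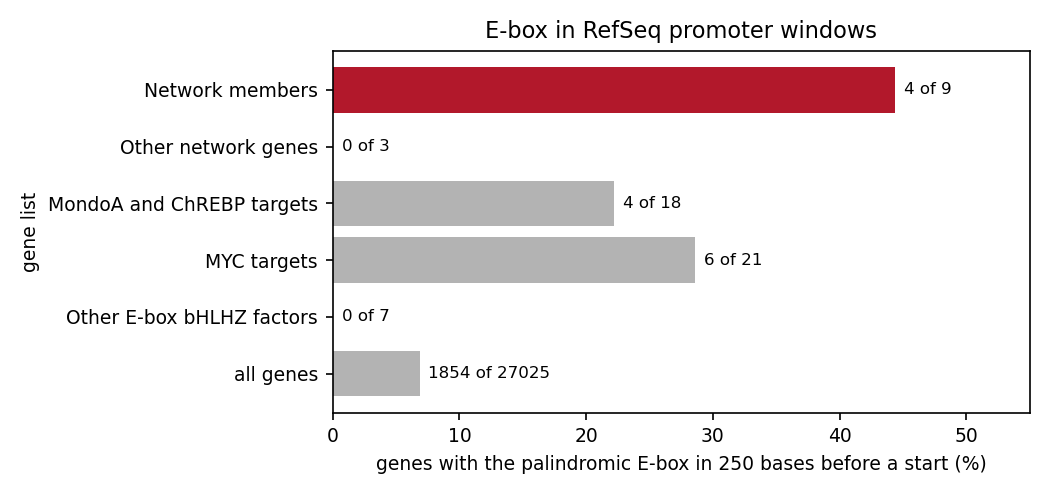
Bars give the percent of genes with at least 1 CACGTG in the 250 bases before a RefSeq start (x axis) for 5 gene lists and for all genes (y axis), with the counts beside each bar. The network genes stand at 4 of 9, the MYC targets at 6 of 21 and the MondoA and ChREBP targets at 4 of 18. All genes stand at 1854 of 27025. The other network genes (Mga, Mxd1 and Mxi1) stand at 0 of 3 and the other E-box factors at 0 of 7. With so few genes in each list these shares have little precision, and no order among the lists is read from them.

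Transcripts of 9 of the 10 network genes were measured above background, and Mlxipl was the exception. Values are log2 expression values that the authors made with RMA (robust multi-array average). A gene was called above background when the mean of its highest probe set, and its value on each array, exceeded the 95th percentile of 39 olfactory receptor genes, whose transcripts are not anticipated in ES cells. This threshold was 5.59 for the mean, 5.60 on replicate 1 and 5.58 on replicate 2. Of all 18194 genes, 68.4% passed it. With 10 genes, the share of 90% in the network rests on 1 gene, and nothing particular to the network is read from it. Probe sets differ in affinity, so the values below are set against the threshold and not against each other's.

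All 12 ES cell markers in a list of such genes were above background, as the label of an ES cell line has it. Their values ran from 6.32 to 14.09, with a median of 11.67. With the median of a gene's probe sets it was 11 of 12. All 21 measured fibroblast markers were above background, with values from 8.81 to 14.87 and a median of 12.43. Of blood cell markers 3 of 5 were: Lyz2 (9.33 ± 0.010; SD, n = 2, as throughout), Csf1r (6.73 ± 0.19) and Cd3e (6.56 ± 0.023). Ptprc (CD45), at 4.05 ± 0.13, and Itgam, at 3.92 ± 0.077, were not. Of 9 liver and visceral endoderm markers 3 were (Ttr, Apoa1 and Hnf4a), while Alb (4.69 ± 0.13) and Afp (4.98 ± 0.11) were not. That count was 1 of 9 with the median of a gene's probe sets and 1 of 6 with unshared ones. The RNA thus held marker transcripts of ES cells and of fibroblasts, the usual feeder cells. A number of these markers are active in other cells too. Blood cell markers passed in 60% and liver and visceral endoderm markers in 33.3%, against 68.4% of all genes. Neither type of cell is read from them. Which cells a network transcript came from was not tested, and fewer cells of a type and less RNA per cell cannot be told apart.

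Mlxipl, which encodes ChREBP, gave 5.05 on replicate 1 and 5.12 on replicate 2 on its only probe set, 1419185_a_at. Both values lay below the threshold, the mean of 5.08 ± 0.054 at -0.51 log2 units from it. A gene of this signal cannot be told from a silent one here, and the array does not show whether its transcript is absent or low. The suffix _a_at marks a probe set that can bind several transcripts of a gene, so the ChREBP isoforms were not told apart. Since no line without the deletion was analysed, the value does not show an effect of the deletion.

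Its closest relative was above background. Mlxip, which encodes the glucose-responsive factor MondoA, had values of 8.15 and 8.29 on replicates 1 and 2 (mean 8.22 ± 0.10), or 2.63 log2 units above the threshold, on its 1 probe set. Mlx, the partner that both Mondo proteins need to bind DNA, had 8.44 and 8.47 on 1418437_a_at. Its other probe set, 1425930_a_at, read 8.04 and 8.16. Both Mlx probe sets lay more than 2.5 log2 units above the threshold on average, with a gap of 0.36 between them.

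Max, the shared partner of MYC and MXD proteins, had 7.86 and 7.93 on replicates 1 and 2, a mean of 7.89 ± 0.048. The mean of its 1 probe set stood 2.30 log2 units above the threshold, and both arrays passed theirs.

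The MYC activators were measured above background on at least 1 probe set each. Myc, a general activator of growth genes, had 9.98 and 10.06 on replicates 1 and 2 (mean 10.02 ± 0.053) on its only probe set, 1424942_a_at. That lies 4.43 log2 units above the threshold.

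Mycn, the paralogue best known from embryonic and neural cells, had 10.02 and 10.11 on 1417155_at, a mean of 10.06 ± 0.061. The other Mycn probe sets were lower, with 7.70 and 7.82 on 1425922_a_at and with 7.33 and 7.07 on 1425923_at. All 3 were above background on both arrays, and the brightest exceeded the dimmest by 2.86 log2 units. The 2 dimmer ones also moved in opposite directions between the replicates, by 0.12 and -0.26.

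Mycl, the third paralogue, depended on the probe set. On 1434777_at it had 6.69 and 6.46 on replicates 1 and 2, a mean of 6.58 ± 0.17 and 0.99 log2 units above the threshold. On 1422088_at it had 4.42 and 4.20, and on 1422087_at 4.26 and 4.24. These 2 probe sets lay over 1 log2 unit below the threshold on both arrays. With the median of the 3 probe sets Mycl was not above background, at 4.33, so whether its transcript was present is not settled by these arrays.

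The repressors were above background as well. Mnt, a large repressor that pairs with MAX or MLX, had 9.45 and 9.43 on 1418192_at. On 1418193_at it had 5.45 and 5.60, below the threshold on replicate 1 and just above it on replicate 2. The 2 Mnt probe sets differed by 3.91 log2 units, the widest gap among the 10 genes. Over the 4694 genes with 2 probe sets the median gap was 1.34, with quartiles of 0.59 and 2.63.

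Mxd3, a MAX partner known from dividing cells, gave similar values on its 3 probe sets. These were 7.24 and 7.23 on 1448878_at, 7.11 and 7.18 on 1438847_at, and 6.80 and 6.84 on 1422970_at. The gap of 0.42 between the brightest and the dimmest lay below the lower quartile of 1.47 over the 2366 genes with 3 probe sets. All 3 gave the same call.

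Mxd4, a MAX partner that can also pair with MLX, was above background on all 4 of its probe sets. The values on replicates 1 and 2 were 9.42 and 9.51 on 1434378_a_at, 7.87 and 7.83 on 1434379_at, 7.56 and 7.63 on 1422574_at, and 6.03 and 6.08 on 1422575_at. The gap of 3.41 log2 units was close to the median of 3.45 for the 1093 genes with 4 probe sets. Its highest value came from a probe set that can bind several transcripts, and without it the level of Mxd4 was 7.85.

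**Figure D2:**
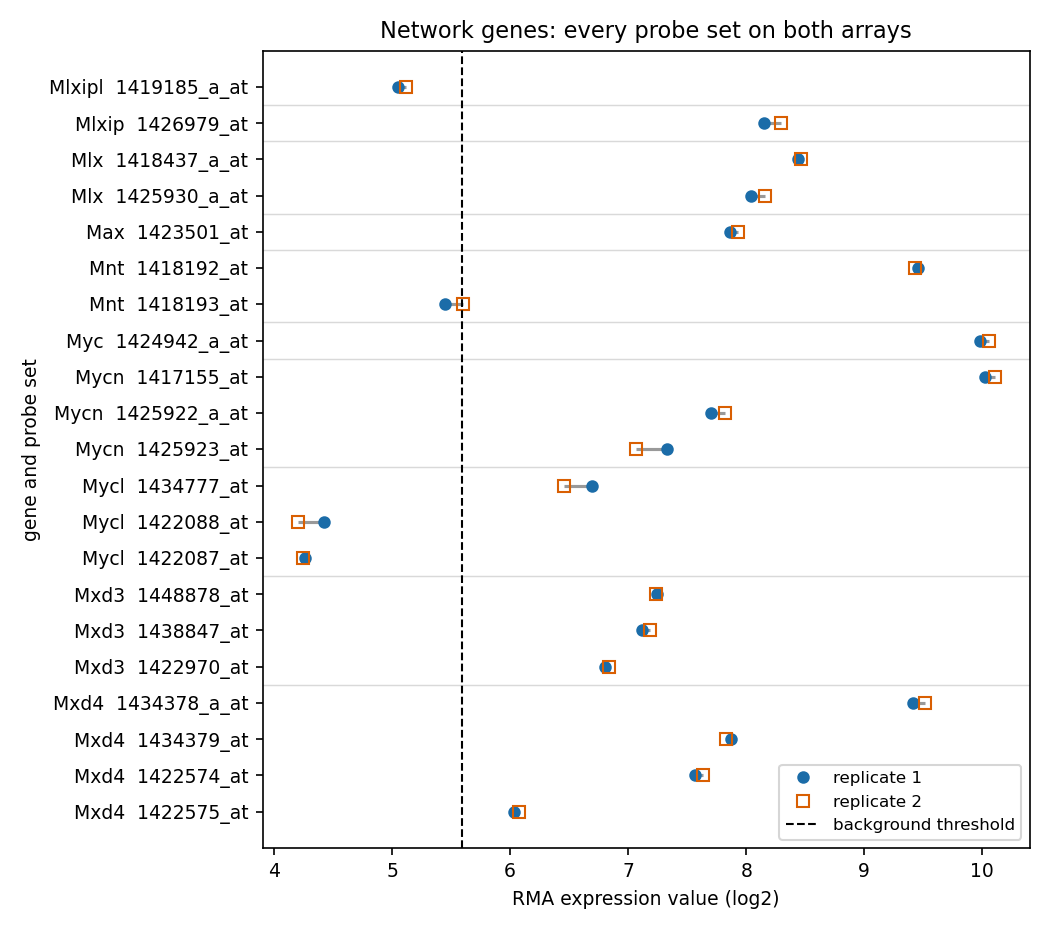
Each row is 1 probe set of a network gene (y axis), with its RMA log2 expression value on replicate 1 (filled circle) and replicate 2 (open square) on the x axis and the background threshold of 5.59 as a dashed line. Mlxipl and 2 probe sets of Mycl lie left of the line, 1 of Mnt lies on either side of it, and the other 17 lie to its right on both arrays.

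Across probe sets, 17 of the 21 were above background, where 55.4% of all probe sets and 61.8% of those with 1 named gene were. Of the 6 network genes with several probe sets, 2 (Mnt and Mycl) had calls that differed between probe sets, a share of 33.3%, against 43.5% of the 9012 genes with several. With 6 genes this share has little precision. In Mlx, Mycn, Mxd3 and Mxd4 every probe set gave the same call.

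The replicates differed little for every network gene. None of the 9 genes that passed the threshold on 1 or both arrays differed by 1 log2 unit or more, and none by 1.5-fold. Over all such genes the shares were 0% (0 of 12769) and 0.0783% (10 of 12769). Over the 21 probe sets, the SD of the difference, replicate 2 minus replicate 1, was 0.12 log2 units, against 0.15 over all 45101. Many of the 45101 are dim. Among probe sets past the threshold on 1 or both arrays, it was 0.115 for 18 of the network and 0.128 for all 25987. The median absolute differences of these were 0.071 and 0.067, so the network is not read as closer than other genes. Over the 21, the lowest difference was -0.26, for Mycn on 1425923_at, and the highest 0.15, for Mnt on 1418193_at.

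Replicate 2 gave the higher value on 14 of the 21 probe sets, and on 23628 of all 45101, which is 52.4%. By gene it was higher for 6 of the 9 above the threshold, where 56.8% of all such genes were. The median difference was 0.068 for these 9 genes and 0.015 over all genes. Mlxip differed by 0.14 and Mycl by -0.24, where probe sets within 0.5 log2 units of their levels had SDs of 0.10 and 0.16. Mycn (0.086), Mxd4 (0.094) and Myc (0.0745) also lay past the SDs at their levels, of 0.069, 0.076 and 0.069. The dimmest Mycn probe set, 1425923_at, differed by -0.26, where that SD was 0.13. Max, at 0.068, lay inside its SD of 0.11. For Mnt (-0.024), Mxd3 (-0.013) and Mlx (0.025) the difference was well inside the SD at their levels, which was 0.076 for Mnt, 0.13 for Mxd3 and 0.095 for Mlx.

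**Figure D3:**
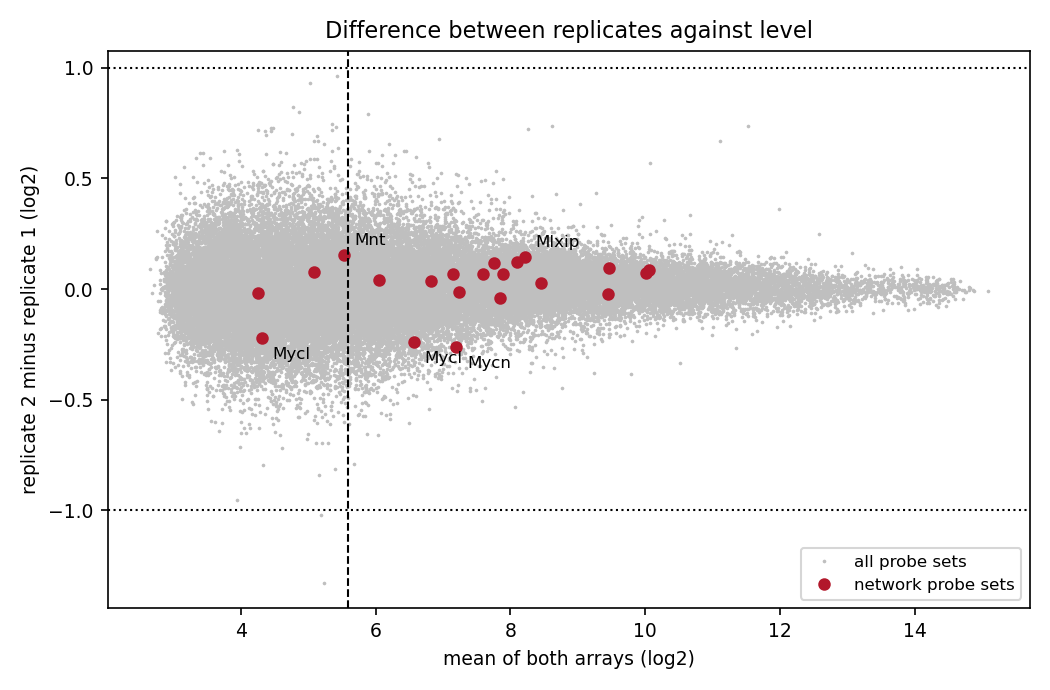
Each point is 1 probe set, with the mean of both arrays (log2) on the x axis and replicate 2 minus replicate 1 (log2) on the y axis, grey for all probe sets and red for the 21 of the network, with dotted lines at 1 log2 unit and the threshold dashed. The red points lie between -0.26 and 0.15, within the grey cloud at their levels, and those of Mycn, Mycl, Mnt and Mlxip with the widest differences are named.

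The 3 remaining MXD and MGA genes of the network were all above background. Mga, a very large MAX partner that also belongs to a variant Polycomb complex, had 9.33 and 9.36 on 1434746_at on replicates 1 and 2. Of its 5 probe sets 3 were above background, and the other 2 had means of 3.98 and 4.37, a gap of 5.37 from the brightest to the dimmest. Mxi1, which can replace MYC as a partner of MAX, had 7.94 and 7.90, and Mxd1, known from differentiating cells, 6.36 and 6.27. All 3 probe sets of Mxd1 and both of Mxi1 were above background. All 7 measured partners of MGA in that complex were too, among them E2f6 (8.95 ± 0.094), Tfdp1 (10.52 ± 0.014), L3mbtl2 (9.04 ± 0.014) and Pcgf6 (10.10 ± 0.065).

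Cofactors through which the network acts were measured throughout. MXD proteins and MNT repress through the SIN3 scaffold and its histone deacetylases, and all 9 measured genes of that list were above background. The scaffold genes Sin3a and Sin3b had means of 9.60 ± 0.047 and 11.50 ± 0.037, and the deacetylase genes Hdac1 and Hdac2 10.91 ± 0.084 and 11.70 ± 0.012. MYC activates through acetyltransferase complexes, and all 14 measured genes of that list passed. Trrap, the scaffold of these complexes, had a mean of 9.02 ± 0.061, the acetyltransferase genes Kat2a and Kat5 had 9.53 ± 0.0995 and 8.60 ± 0.049, and Ep400, a chromatin remodeller, had 9.70 ± 0.069.

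Genes that set the stability of MYC protein were also all above background, 13 of 13 measured. Fbxw7, Skp2 and Huwe1, which encode parts of ubiquitin ligases that act on MYC, had means of 9.08 ± 0.018, 9.997 ± 0.013 and 10.50 ± 0.014. Usp28, a deubiquitinase that opposes FBXW7, had 8.53 ± 0.017. The arrays measured RNA, so MYC protein was not seen.

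Other bHLH zipper factors that bind E-boxes passed in 9 of 9 cases. Among them Usf1 had 9.19 ± 0.10, Usf2 8.34 ± 0.11, and the lysosome regulators Tfe3 and Tfeb 9.08 ± 0.0063 and 7.76 ± 0.053. The shares of all these lists stand against 68.4% of all genes, and many of these genes are active in most tissues, so nothing particular to the network is read from them.

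**Figure D4:**
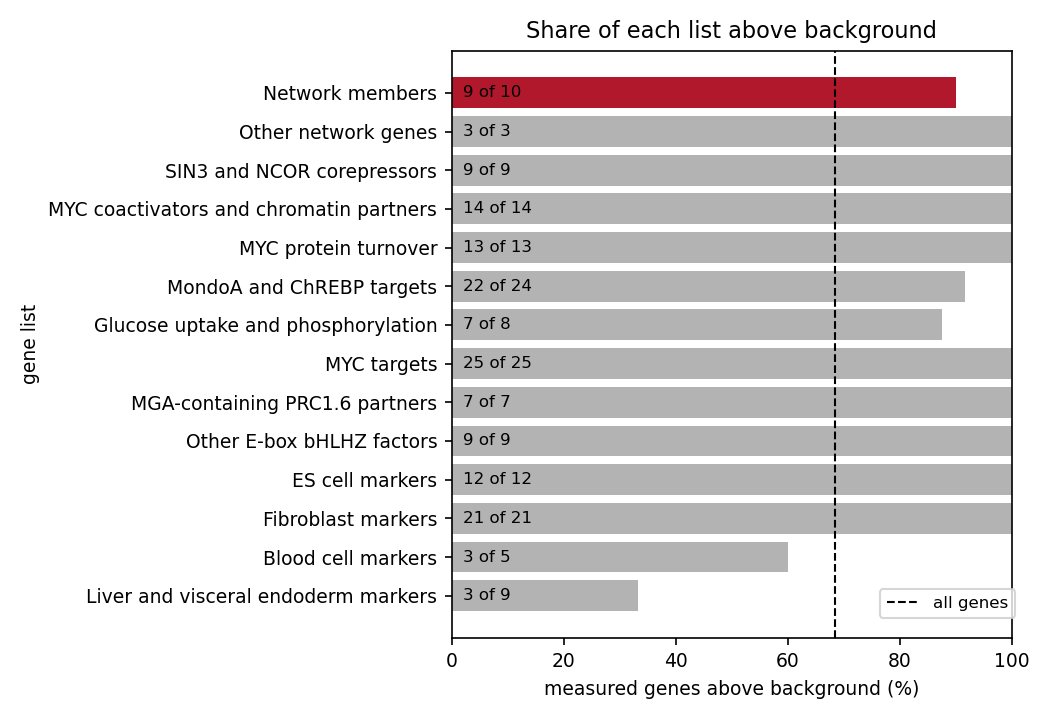
Bars give the percent of measured genes above background (x axis) in each gene list (y axis), with counts inside the bars and the share of all genes, 68.4%, as a dashed line. The network genes stand at 9 of 10, the cofactor, turnover and MYC target lists are wholly above background, and liver and visceral endoderm markers stand at 3 of 9.

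Known targets of MondoA and ChREBP were above background in 22 of 24 cases (91.7%), against 68.4% of all genes. Txnip, a brake on glucose uptake and the best known MondoA target, had 10.46 and 10.43 on replicates 1 and 2. Its relative Arrdc4 had 8.84 and 8.96. The hexokinase gene Hk2 had 11.46 and 11.41, and Pfkfb3, which encodes an activator of glycolysis, had 7.18 and 7.19. Both arrays gave these 4 genes values well above the threshold.

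The 2 genes of that list not above background were G6pc and Fgf21. G6pc, which encodes the glucose-releasing phosphatase of liver, had 3.76 and 3.75, and Fgf21, a hormone gene of liver, had 5.33 and 5.32. The pyruvate kinase gene Pklr, a classic ChREBP target of liver named here after its values were seen, had 7.59 and 7.86, and its difference of 0.27 was the widest of the list. With a threshold from vomeronasal and taste receptor genes 19 of 24 passed. That threshold was 6.06 for the mean and 6.15 on replicate 2, and Gpd1 (mean 5.90) missed both, while Acacb (6.09) and Pnpla3 (6.06) missed it on replicate 2. Many targets answer to other factors too, so their levels do not show activity of MondoA or ChREBP.

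Of 8 measured genes of glucose uptake and phosphorylation 7 (87.5%) were above background, against 68.4% of all genes. The glucose transporter genes Slc2a1, Slc2a3 and Slc2a8 had means of 11.46 ± 0.034, 12.92 ± 0.0071 and 8.38 ± 0.00098, and the hexokinase gene Hk1 had 9.14 ± 0.035. Slc2a2, the transporter of liver and pancreatic beta cells, was not above background, at 3.54 ± 0.0057.

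Promoter windows were available for 18 of the 24 MondoA and ChREBP targets. Of these, 4 (22.2%) held CACGTG, against 6.86% of all genes and 10.1% of those above background. They were Arrdc4, Pfkfb3, Fgf21 and Khk, the last named after its sequence was seen. The carbohydrate response element to which ChREBP and MondoA bind is known as a pair of E-box-like motifs 5 bases apart. An exact pair, CACGTG and CACGTG with any 5 bases between, was found before 0 of the 27025 genes. A looser form chosen after seeing the data, CACGNG and CACGNG with any 5 bases between, or the reverse complement CNCGTG and CNCGTG, was found before 14 genes, or 0.0518%. Txnip was 1 of them and the only one among the 18 targets, and none of the 9 network genes with a window was. The Txnip window is chr3:96557707-96557956, plus strand, and its pair runs from 85 to 69 bases before the start. The Arrdc4 window is chr7:68749239-68749488, minus strand, with CACGTG 193 bases before the start. Capitals mark the motifs.
Txnip: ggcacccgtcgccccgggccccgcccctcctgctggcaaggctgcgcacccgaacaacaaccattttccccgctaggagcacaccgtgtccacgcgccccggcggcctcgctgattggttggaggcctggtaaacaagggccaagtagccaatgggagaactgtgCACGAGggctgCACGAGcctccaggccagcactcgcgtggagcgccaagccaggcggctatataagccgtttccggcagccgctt
Arrdc4: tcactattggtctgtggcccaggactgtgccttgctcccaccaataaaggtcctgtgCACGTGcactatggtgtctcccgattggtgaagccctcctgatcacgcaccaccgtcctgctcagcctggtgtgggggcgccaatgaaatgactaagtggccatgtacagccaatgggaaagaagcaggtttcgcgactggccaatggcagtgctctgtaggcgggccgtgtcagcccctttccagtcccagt

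Known MYC targets were above background in 25 of 25 cases, where 68.4% of all genes were. Activity of MYC is not read from this count. Odc1, the first enzyme of polyamine synthesis, had 13.12 and 13.03 on replicates 1 and 2, and Cad, of pyrimidine synthesis, 9.94 and 9.96. The nucleolar protein genes Ncl and Npm1 had 13.48 and 13.50, and 14.35 and 14.28. Tert, of telomerase, lay nearest to the threshold, at 5.81 and 5.95, and was named after its values were seen. It was the 1 target lost with the vomeronasal and taste receptor threshold. The median difference between replicates was 0.0058 for MYC targets and -0.012 for MondoA and ChREBP targets, against 0.015 over all genes.

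Of the 21 MYC targets with a promoter window, 6 (28.6%) held CACGTG, against 6.86% of all genes and 10.1% of those above background. More than 1 copy was held by 3, against 0.5% of all genes. Windows of MYC targets held a median of 16.5 CpG dinucleotides, against 15 for genes above background and 6 in all windows. The part of CpG content in the shares of both target lists was not tested. Such counts do not show that MYC binds there. Cdk4, which encodes a kinase of the G1 phase, had 4 copies, and Eif4e, the cap-binding translation factor gene, and Ldha, of lactate production, had 2 each. The other 3 were Nme1, Eif4a1 and Hspd1, named after their sequences were seen. On the arrays Cdk4 had 11.69 and 11.76, Eif4e 11.86 and 11.88, and Ldha 12.49 and 12.55 on replicates 1 and 2. The Cdk4 window is shown because it held the most copies among the targets. It is chr10:127063285-127063534, plus strand, with copies that begin 172, 118, 98 and 11 bases before the start, in capitals.
Cdk4: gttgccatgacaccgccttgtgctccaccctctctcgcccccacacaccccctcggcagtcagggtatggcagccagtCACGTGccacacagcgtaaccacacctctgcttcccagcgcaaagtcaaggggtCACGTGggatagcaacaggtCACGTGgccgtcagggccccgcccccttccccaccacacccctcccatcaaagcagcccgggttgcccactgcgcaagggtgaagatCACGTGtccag

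**Figure D5:**
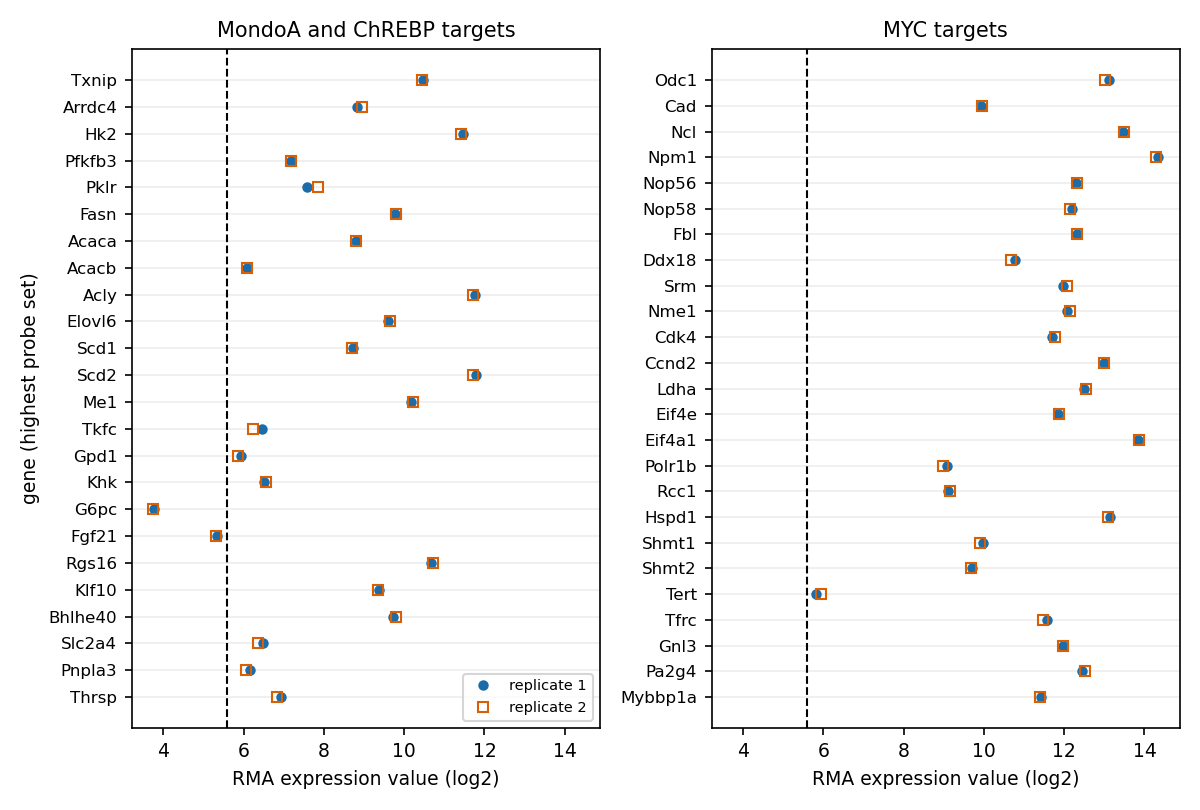
Each row is a known target gene (y axis), with the RMA log2 expression value of its highest probe set on replicate 1 (filled circle) and replicate 2 (open square) on the x axis and the threshold of 5.59 dashed, MondoA and ChREBP targets left and MYC targets right. G6pc and Fgf21 lie left of the line, Tert lies just right of it, and the replicates nearly coincide for most genes.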

How the data were processed

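Total RNA of 1 mouse ES cell line kept on feeder cells was measured on 2 Affymetrix arrays. The arrays took biotin-labelled cRNA made from 6 µg of RNA per the labels' protocols. The deposited log2 values, 1 for each probe set on each array, are RMA output per the submitters' processing notes. The version of RMA is not given in the sources used here, nor is the set of arrays normalized with these. RMA equalises the arrays' distributions, so a shift common to most genes would be hidden. The median was 6.01 on each array. Precision is limited by the number of arrays, which have no read depth.

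Of 45101 probe sets, 34958 had 1 gene symbol in the platform annotation, 932 had several and 9211 had none here. Identifiers of 34754 matched the RefSeq gene table, which changed 0 symbols. The highest probe set by mean stood for a gene. The 39 olfactory receptor genes had 1.13 probe sets each on average, so the choice of the highest favours genes with more. Computations used Python 3.11.15, pandas 2.3.3 and statsmodels 0.14.6. The cut of 1 log2 unit and the threshold for the mean were also run on simulated normal values drawn with these data's own spread. Neither the rule for each array nor the choice of the highest probe set was covered, so this is no support for the calls. With 1 group there was no test.

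The members and the 14 lists (180 entries) were chosen with earlier results of these data known. All members and their probe sets were named, all other network genes, the first 4 genes above background and the first 4 not above it of each other list, and targets with CACGTG more than once; of the cell type marker lists only some of these are given. Protein sequences were not used here.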

Additional observations from a re-analysis of the deposited data

How the results depend on the processing

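Of 121 alternative values of the counts and SDs, 116 stayed within 1.5 times the reported value. Many of them had little room to move, since both array medians were 6.01 and 0 of 12769 genes passed 1 log2 unit. Taking the median over a gene's probe sets, 8 of the 10 network genes were above background in place of 9 (Mycl was lost), and 7 of 7 with unshared probe sets (no suffix _a_at, _s_at or _x_at), which leave no probe set for Mlxipl, Mlx or Myc. It was 9 under the vomeronasal and taste receptor threshold (6.06), the 99th percentile (5.66), centring and each array alone. In place of 17 of 21 network probe sets, 16 of 21 passed under the vomeronasal and taste receptor threshold and 18 of 21 on replicate 2 alone. With unshared probe sets it was 13 of 15, where the threshold, taken from unshared ones too, was lower, at 5.28. For liver and visceral endoderm markers, 3 of 9 turned to 1 of 9 under the median over probe sets and 1 of 6 with unshared ones. Fewer genes were tested in the second, and the cause of the first was not tested. Under the vomeronasal and taste receptor threshold it was 2 of 9. The looser paired motif, added after seeing the data, gave 0 network genes, 1 MondoA and ChREBP target and 0 MYC targets in place of 4, 4 and 6, being another and longer motif. Fibroblast markers without Vim, Fn1 and Sparc, also added later, gave 18 of 18. No network gene passed 1 log2 unit between replicates under loess (fraction 0.3), centring, unshared probe sets, every probe set or no filter, and the SD of the differences stayed between 0.12 and 0.13. Of 47 alternative levels of network genes, 7 moved by more than the SD between replicates: the median of probe sets gave 8.28 for Mlx, 7.48 for Mnt, 7.76 for Mycn, 4.33 for Mycl, 7.15 for Mxd3 and 7.73 for Mxd4, and unshared probe sets 7.85 for Mxd4. No paired analysis was possible because the labels give a single group. For Mlxipl and Mycl, signal over background is the limit.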
